A study of Mus musculus with 6 samples.

Results

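The nuclear genes for the proteins of the mitochondrial ribosome were taken as every gene symbol that begins with Mrpl or Mrps followed by a number and at most 1 letter. This rule uses the name and no measured value, and it found 78 of the 52459 symbols in the count table, 49 Mrpl symbols (large subunit by name) and 29 Mrps symbols (small subunit by name). RNA was sequenced from C57BL/6 mouse bone marrow derived macrophages grown with GM-CSF, a cytokine that drives bone marrow progenitors towards myeloid cells. The control group held 3 libraries of cells given vehicle, and the piceatannol group held 3 libraries of cells given piceatannol, a plant stilbene related to resveratrol that is known to inhibit the kinase Syk, overnight from day 7 of culture. Every library thus came from the same strain and the same growth factor, and no genotype differed. No source used here gives the dose, the vehicle or whether replicate libraries stem from different mice or cultures. A p-value here therefore rests on the scatter between 3 libraries a group, which may be technical.

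Mitochondria carry their own ribosomes, which translate a small set of membrane subunits of the respiratory chain and ATP synthase from mRNAs of the mitochondrial genome. The ribosomal RNAs of this ribosome are encoded in the mitochondrion, whereas all its proteins are encoded in the nucleus, made on cytosolic ribosomes and imported. Some of the proteins have counterparts in the bacterial ribosome and others are specific to mitochondria, and the assembled ribosome holds them in fixed proportion. In macrophages, mitochondrial respiration is known to differ between activation states, and the series compares the macrophage transcriptome with and without piceatannol.

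Most of the set was lower with piceatannol. Of the 78 genes, 77 passed the filter on low counts, and by edgeR's quasi-likelihood test (called at a Benjamini-Hochberg adjusted p under 0.05 over the 15380 genes tested) 51 were lower, 11 were higher and 15 were not called. The background was wide, since 38.3% of all genes tested were called lower and 38.8% higher; among the tested ribosomal protein genes the shares were 66.2% and 14.3%. The median log2 fold change over the 77 genes was -0.44, with the quartiles at -0.74 and -0.09, beside a median of 0.01 over all genes tested. On the log2 scale 34 genes (44.2%) lay below -0.5, 36 within 0.5 of 0 and 7 (9.09%) above 0.5, where 30.2% of all genes tested lay below and 31.1% above these limits. A called decrease of at least 2-fold was seen in 5 of them, Mrps14, Mrpl54, Mrpl36, Mrpl20 and Mrps25, where the background for that rule was 16.6%. A called increase of at least 2-fold was seen in Mrps6 alone among the 77, where the background was 17.5%.

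Promoter sequences are shown for 6 genes that span the range of response, since genes on 17 chromosomes are described together and the promoter is the sequence that can be set side by side. RefSeq's promoter table (GRCm38.p6) matched 69 of the 78 symbols. Each sequence is the stretch of at most 150 bases before the start that no annotated exon covers, 5′ to 3′ on the gene's strand. Capitals mark a match to the NRF1 core CGCATGCG, the ETS site CCGGAAGT or the YY1 site AAGATGGC on either strand. NRF1, the ETS factor GABP and YY1 are known regulators of nuclear genes for mitochondrial proteins. Mrps14 and Mrpl20 were among the lowest in fold change and Mrps6 was the highest, and none of these 3 stretches holds a match. Mrps27, called lower at -0.36, holds an ETS match. Mrpl9, called lower at -0.33, and Mrpl22, not called at 0.08, both hold the NRF1 core.
Mrps14 (chr1:160195065-160195214, plus strand): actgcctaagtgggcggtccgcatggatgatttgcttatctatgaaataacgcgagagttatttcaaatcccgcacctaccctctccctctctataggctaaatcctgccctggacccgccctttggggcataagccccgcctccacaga
Mrpl20 (chr4:155802728-155802877, plus strand): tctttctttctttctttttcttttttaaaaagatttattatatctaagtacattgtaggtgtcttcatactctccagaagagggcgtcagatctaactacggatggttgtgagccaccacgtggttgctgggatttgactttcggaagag
Mrps27 (chr13:99344706-99344785, plus strand): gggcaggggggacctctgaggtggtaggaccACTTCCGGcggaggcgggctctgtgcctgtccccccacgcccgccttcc
Mrpl9 (chr3:94443168-94443317, plus strand): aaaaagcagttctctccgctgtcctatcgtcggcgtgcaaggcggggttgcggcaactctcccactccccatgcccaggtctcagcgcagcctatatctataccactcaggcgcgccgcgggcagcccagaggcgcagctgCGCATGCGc
Mrpl22 (chr11:58171511-58171660, plus strand): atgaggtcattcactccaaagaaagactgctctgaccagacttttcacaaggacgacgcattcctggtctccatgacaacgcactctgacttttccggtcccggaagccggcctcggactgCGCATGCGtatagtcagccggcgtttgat
Mrps6 (chr16:92058120-92058269, plus strand): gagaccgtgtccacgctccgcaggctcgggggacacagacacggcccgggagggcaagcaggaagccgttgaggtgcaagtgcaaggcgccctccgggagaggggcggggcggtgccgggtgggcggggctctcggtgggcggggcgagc
Matches occurred among genes of every call. Of the 69 matched genes 44 were called lower, 10 higher and 14 not called, beside 38.3% lower and 38.8% higher over all genes tested. Calls of genes that hold a motif are to be read beside both backgrounds, and whether a motif went with a call was not tested. Over the window from 250 bases before to 50 bases after the start, 7 of the 69 matched genes (10.1%) held the NRF1 core, beside 4.12% of the promoters of genes tested and 2.07% of all promoters in the table. These 7 comprised Mrpl9 and Mrpl17, called lower, Mrps18b and Mrpl39, called higher, and Mrpl10, Mrpl22 and Mrpl32, not called; their log2 fold changes ran from -0.33 to 0.38. The ETS site was held by 12 genes (17.4%, beside 8.64% of tested and 4.31% of all promoters), of which 9 were called lower, none was called higher and 3 were not called. The YY1 site was held by 12 genes (17.4%, beside 5.14% and 3.19%), of which 10 were called lower and 1 higher. In 8 of these 12 the YY1 match lay after the start, between base 11 and base 36, each time read as AAGATGGC on the gene's strand. The shorter NRF1 motif GCATGCG, which lies within the core, was held by 11.6% of the matched genes (6.94% of tested promoters), the E-box CACGTG by 7.25% (11.5%), CCAAT by 39.1% (42.6%), the cAMP response element TGACGTCA by 2.9% (3.5%) and TATAAA by 7.25% (8.85%). The median GC content of the windows was 58.0% for the matched genes and 60.3% for promoters of genes tested.

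**Figure D1:**
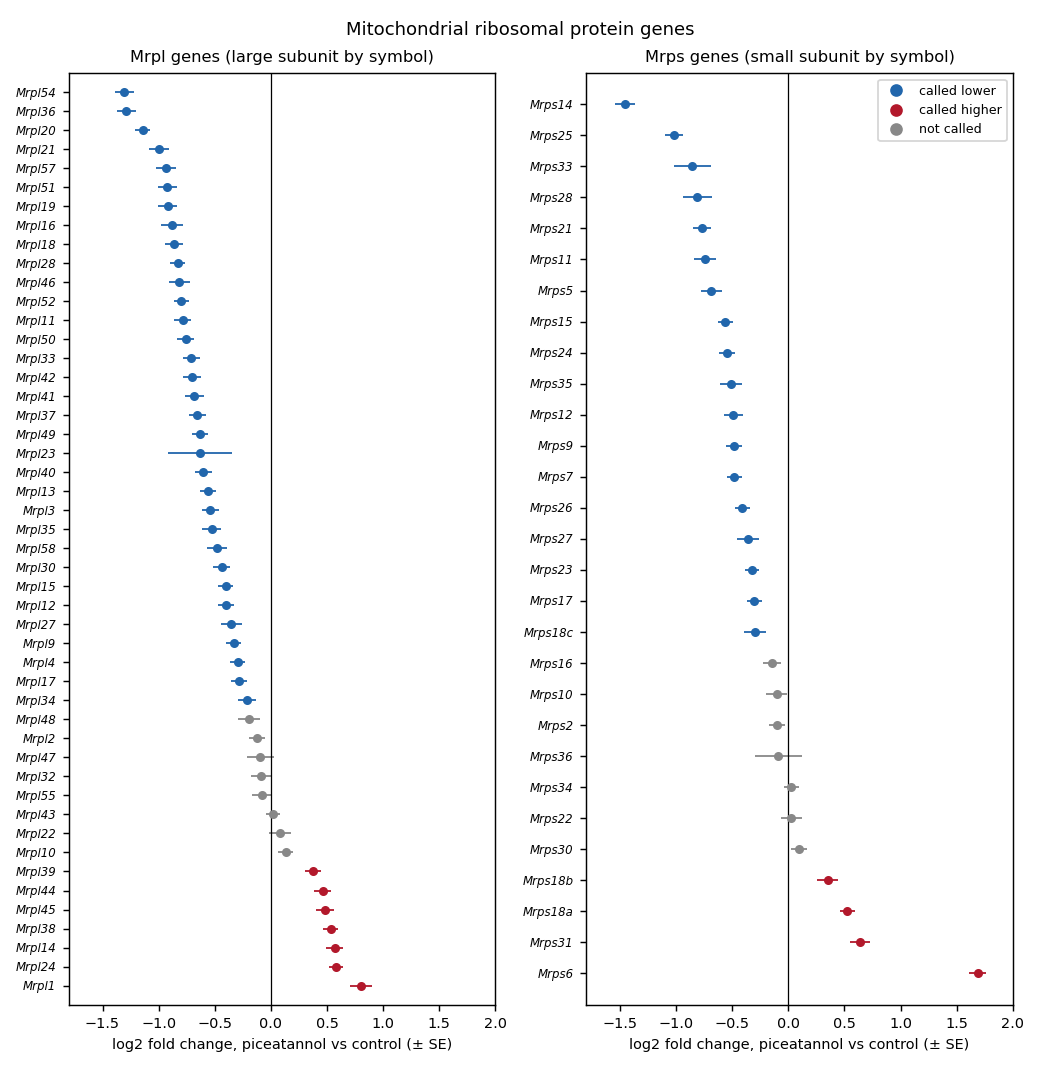
Log2 fold change (piceatannol against control, x axis) with its standard error for each tested gene, Mrpl genes on the left and Mrps genes on the right, ordered by fold change; blue points were called lower, red points higher and grey points not called. Most points lie left of 0, from -1.45 for Mrps14, while Mrps6 stands apart on the right at 1.69.

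Among the large subunit genes by symbol, 48 of 49 were tested, with a median log2 fold change of -0.51. Of these, 33 (68.8%) were called lower, 7 (14.6%) higher and 8 not called, beside 38.3% and 38.8% of all genes tested. The 8 with the lowest fold changes were Mrpl54, Mrpl36, Mrpl20, Mrpl21, Mrpl57, Mrpl51, Mrpl19 and Mrpl16. All 8 were called lower, and in each of them every piceatannol library lay below every control library. Across all genes tested, 79% had groups that did not overlap, in either direction.

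Mrpl54 (chr10:81264713-81266934, minus strand, GRCm38) encodes a protein specific to the mitochondrial large subunit. Its normalised read count, in CPM (counts scaled to 1 common library size with TMM factors), was 29.3, 30.3 and 27.4 in the control libraries and 11.0, 12.4 and 11.9 in the piceatannol libraries. Its level was 2.47-fold lower with piceatannol, a log2 fold change of -1.31 ± 0.09 (SE; edgeR adjusted p = 1.75e-11). Mrpl36 (chr13:73328513-73332178, plus strand), the counterpart of the small bacterial protein L36, went from 32.6, 37.6 and 33.4 CPM to 14.7, 13.7 and 14.0 CPM. That was 2.44-fold lower, and the 3 piceatannol values lay closer together than the control values (log2 fold change -1.29 ± 0.08; edgeR adjusted p = 1.27e-11). Mrpl36 overlaps the gene Ndufs6, a complex I subunit on the opposite strand, over 2.58% of its exonic bases. Ndufs6 was called lower as well (log2 fold change -0.87).

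Mrpl20 (chr4:155802878-155809975, plus strand), counterpart of bacterial L20, a protein that binds early in assembly of the large subunit, was at 53.9, 56.6 and 54.1 CPM in the controls. With piceatannol it was at 23.0, 25.5 and 26.0 CPM, 2.21-fold lower (log2 fold change -1.14 ± 0.07; edgeR adjusted p = 8.44e-12). It was the most abundant by read count of the 8, and its groups stood far apart relative to their spread. Mrpl21, counterpart of bacterial L21, fell from 22.3, 24.5 and 22.4 CPM to 12.6, 11.1 and 10.9 CPM, a log2 change of -0.99 ± 0.09 (edgeR adjusted p = 3.53e-09). Mrpl57 and Mrpl51, both specific to mitochondria, had log2 fold changes of -0.94 ± 0.09 and -0.92 ± 0.09. Mrpl19 and Mrpl16, counterparts of bacterial L19 and L16, had -0.92 ± 0.09 and -0.88 ± 0.10. These 4 genes stood between 20.1 and 33.1 CPM in the controls and between 9.32 and 17.7 CPM with piceatannol. Mrpl19 overlaps Gcfc2 on the opposite strand over 36.0% of its exonic bases, and Gcfc2 was called higher at 0.79.

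Mrpl12 encodes the stalk protein that recruits translation factors and is also known to bind the mitochondrial RNA polymerase. It was at 59.2, 67.9 and 61.1 CPM in the control libraries and 45.3, 48.2 and 49.0 CPM in the piceatannol libraries, 1.32-fold lower without overlap (log2 fold change -0.40 ± 0.07; edgeR adjusted p = 2.41e-05). The other genes of the large subunit called lower ran from -0.86 for Mrpl18 to -0.21 for Mrpl34. The call for Mrpl34 (edgeR adjusted p = 0.0189) was among the weakest of the 33. The weakest was that of Mrpl23, counterpart of bacterial L23, at 1.04, 1.00 and 1.74 CPM in the controls and 0.879, 0.908 and 0.696 CPM with piceatannol. Its edgeR adjusted p was 0.0498, its standard error 0.28 around a log2 fold change of -0.63, and 11.8% of its 50-base stretches occur in transcripts of other genes, the pseudogene Mrpl23-ps1 among them. Of the 17 fits that tested Mrpl23, 7 called it lower and 10 did not call it. With the replicate number as a block Mrpl23 was not called and Mrpl10, at a log2 fold change of 0.13 in the fit without the block, was called higher.

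The 7 large subunit genes called higher were Mrpl1, Mrpl24, Mrpl14, Mrpl38, Mrpl45, Mrpl44 and Mrpl39, in falling order. Mrpl1 (chr5:96209493-96266727, plus strand), the protein of the mobile L1 stalk next to the exit site of tRNAs, rose from 10.3, 10.8 and 10.5 CPM to 20.7, 17.9 and 16.3 CPM. The increase was 1.74-fold (log2 fold change 0.80 ± 0.10; edgeR adjusted p = 3.89e-07). Its piceatannol libraries were more spread than its control libraries, but none reached the control range. Mrpl24 (chr3:87919506-87923672, plus strand), the counterpart of bacterial L24 near the exit of the peptide tunnel, rose from 79.2, 82.1 and 85.9 CPM to 120.6, 117.9 and 130.4 CPM, a log2 change of 0.58 ± 0.06 (edgeR adjusted p = 4.26e-08). Of its exonic bases 26.3% overlap Rrnad1 on the opposite strand, which was also called higher (log2 fold change 0.72). Since no source used here gives the strand setting of the counting, reads of these overlapping genes cannot be told apart.

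Mrpl14, at the interface between the subunits, rose from 27.3, 27.6 and 31.1 CPM to 40.1, 43.8 and 43.7 CPM (log2 fold change 0.57 ± 0.07; edgeR adjusted p = 7.34e-07). It overlaps Tmem63b on the opposite strand over 11.2% of its exonic bases, and Tmem63b was called higher at 1.23. Mrpl38, a mitochondria-specific protein of the central protuberance, rose from 30.5, 32.9 and 30.8 CPM to 45.1, 43.5 and 47.4 CPM (log2 fold change 0.53 ± 0.07; edgeR adjusted p = 6.48e-07), and no annotated exon of another gene overlaps its exons. Mrpl45, which tethers the ribosome to the inner membrane, had a log2 fold change of 0.48, Mrpl44, a protein with an RNase III-like fold, 0.46, and Mrpl39 0.38. Mrpl44 shares 7.66% of its exonic bases with Wdfy1 on the opposite strand, which was called higher at 1.46.

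**Figure D2:**
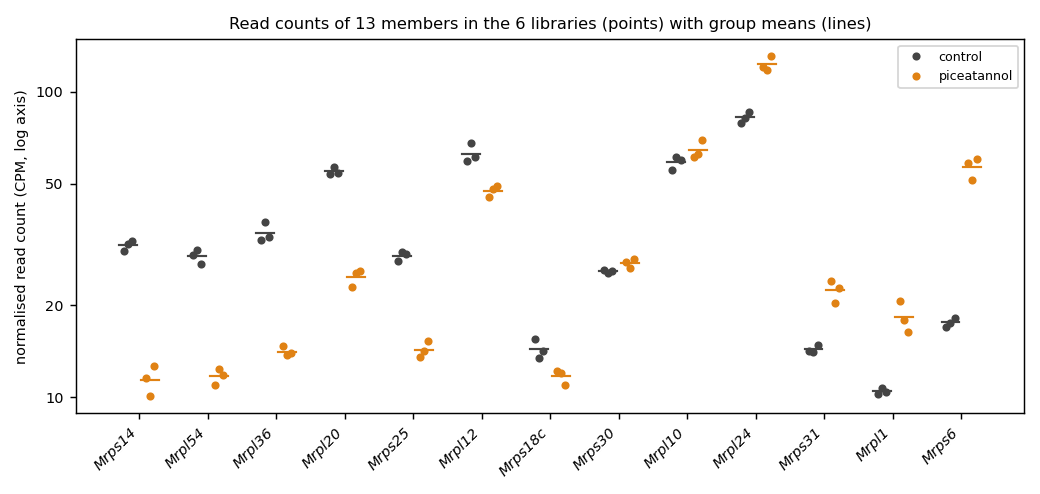
Normalised read counts (CPM, log axis) of 13 genes in the 3 control libraries (grey points) and the 3 piceatannol libraries (orange points), with lines at the group means. Mrps14, at 10.1 to 12.7 CPM with piceatannol, and Mrps6, at 51.6 to 60.0 CPM, lie farthest from their controls below and above.

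In the small subunit by symbol all 29 genes were tested, with a median log2 fold change of -0.36. Of these, 18 (62.1%) were called lower, 4 (13.8%) higher and 7 not called, beside 38.3% and 38.8% of all genes tested. The lowest was Mrps14 (chr1:160195215-160202170, plus strand), counterpart of bacterial S14 in the head of the small subunit. Mrps14 was at 30.0, 31.8 and 32.5 CPM in the controls and at 11.5, 10.1 and 12.7 CPM with piceatannol. It was 2.74-fold lower, the largest decrease in the whole set (log2 fold change -1.45 ± 0.09; edgeR adjusted p = 8.23e-12). No annotated exon of another gene overlaps its exons.

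Mrps25 (chr6:92169525-92184033, minus strand), a protein specific to the mitochondrial small subunit, went from 27.9, 30.0 and 29.4 CPM to 13.6, 14.2 and 15.3 CPM. It was 2.02-fold lower (log2 fold change -1.02 ± 0.08; edgeR adjusted p = 4.65e-10), while Nr2c2, which overlaps 69.8% of its exonic bases on the opposite strand, was called higher at 0.50. Mrps33 and Mrps28 were thinly covered, at 3.93 to 4.63 CPM and 7.95 to 9.25 CPM in the controls. With piceatannol they were at 2.09 to 2.60 CPM and 4.58 to 5.61 CPM, and both were called lower (log2 fold changes -0.85 ± 0.16 and -0.81 ± 0.13). Mrps21, counterpart of bacterial S21 and among the genes of the set with the highest level per length, fell from 38.6, 41.6 and 44.3 CPM to 22.9, 23.5 and 26.6 CPM, a log2 change of -0.77 ± 0.08 (edgeR adjusted p = 2.35e-08). Mrps11, counterpart of bacterial S11, had a log2 fold change of -0.74 ± 0.10. Mrps11 overlaps the large subunit gene Mrpl46 on the opposite strand, and both were called lower (Mrpl46 at -0.82).

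Mrps6 (chr16:92058270-92112227, plus strand), counterpart of bacterial S6, had the largest increase of the set. Its read count was 17.1, 17.6 and 18.2 CPM in the controls and 58.3, 51.6 and 60.0 CPM with piceatannol. That is 3.22-fold higher (log2 fold change 1.69 ± 0.08; edgeR adjusted p = 4.63e-14), and the lowest piceatannol library was far above the highest control. Mrps6 shares 30.3% of its exonic bases on the same strand with Slc5a3, a sodium and myo-inositol cotransporter gene, and with the predicted gene Gm49711. Slc5a3 itself was listed at 228, 176 and 318 counts in the controls and 1381, 517 and 1171 counts with piceatannol, and was called higher (log2 fold change 2.40 ± 0.32; edgeR adjusted p = 0.00102). No source used here says how reads in the shared exons were assigned, so the part of the rise that lies in the ribosomal protein transcript was not tested.

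Mrps31 (chr8:22411361-22429665, plus strand), specific to mitochondria, rose from 14.2, 14.1 and 14.9 CPM to 24.0, 20.3 and 22.9 CPM (log2 fold change 0.64 ± 0.09; edgeR adjusted p = 1.28e-06). Unlike Mrps6, it overlaps no exon of another gene. The 3 genes named for bacterial S18 did not move as 1 group. Mrps18a, whose product sits in the large subunit in spite of its name, rose from 30.3, 30.5 and 30.6 CPM to 42.4, 44.1 and 45.1 CPM (log2 fold change 0.53 ± 0.07; edgeR adjusted p = 4.95e-07). Mrps18b, a small subunit protein, rose from 11.5, 12.7 and 11.3 CPM to 15.03, 14.37 and 15.71 CPM (log2 fold change 0.35 ± 0.09; edgeR adjusted p = 0.00219). Mrps18c was at 15.5, 13.5 and 14.2 CPM in the controls and 12.18, 12.01 and 11.02 CPM with piceatannol, and was called lower (log2 fold change -0.29 ± 0.10; edgeR adjusted p = 0.00914). The call for Mrps18c was lost without control replicate 1, with a log2 fold change of -0.24 and an edgeR adjusted p of 0.062. Mrps18b overlaps the predicted gene Gm16279 on the opposite strand over 30.5% of its exonic bases, and Gm16279 had at most 16 counts in any library. Mrps18c shares 23.2% of its exonic bases on the same strand with the predicted gene Gm43511, which was not called (log2 fold change -0.43).

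The remaining genes singled out by rule did not pass the test. Mrps30, whose product also belongs to the large subunit, was at 26.2, 25.6 and 25.9 CPM and at 27.8, 26.6 and 28.5 CPM (log2 fold change 0.09 ± 0.07; edgeR adjusted p = 0.24). Mrps36, now known as a subunit of the 2-oxoglutarate dehydrogenase complex and not of the ribosome, was at 1.69, 2.12 and 1.88 CPM and at 1.45, 1.85 and 2.03 CPM (log2 fold change -0.09 ± 0.21; edgeR adjusted p = 0.706). Its groups overlapped, and 17.3% of its 50-base stretches occur in transcripts of other genes. Mrpl53 was the only untested gene of the set, with 1, 5 and 5 counts in the controls and 9, 1 and 2 counts with piceatannol. Of its exonic bases 88.0% are shared on the same strand with the predicted gene Gm42688, which stood at a mean of 3.51 CPM in the controls and 4.08 CPM with piceatannol.

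The gap between the subunits depended on the assignment of genes, and shifted less with the unit and the libraries used. The median log2 fold change was 0.14 lower for Mrpl than for Mrps genes by symbol (a difference of -0.143 on the log2 scale). When Mrps30 and Mrps18a were counted with the large subunit and Mrps36 was left out, the medians were -0.46 over 50 large and -0.44 over 26 small subunit genes, a difference of -0.016. By symbol the difference was -0.070 without control replicate 3 and -0.089 on the FPKM scale. Both shifts were smaller than the SD between libraries of the gap in median log2 CPM, taken in the group with the larger SD. In the piceatannol libraries the Mrpl median was 4.421, 4.467 and 4.483 log2 CPM and the Mrps median 4.520, 4.346 and 4.517, so their order differed between libraries. By the structural assignment 33 large subunit genes (66%) were called lower and 8 (16%) higher. Of the small subunit genes 18 (69.2%) were called lower and 3 (11.5%) higher, beside 38.3% and 38.8% of all genes tested. Per library, the summed read count of the Mrpl genes was 1629, 1721 and 1637 CPM in the controls and 1341, 1304 and 1388 CPM with piceatannol. The Mrps sum was 759.2, 796.2 and 770.6 CPM in the controls and 656.4, 650.8 and 679.2 CPM with piceatannol. Both sums were lower in every piceatannol library than in every control library. Their ratio was 2.14 ± 0.02 in the controls and 2.03 ± 0.02 with piceatannol (mean ± SD, n = 3), ranging from 2.125 to 2.161 and from 2.004 to 2.043. This lower ratio depended on Mrps6 and on the assignment by symbol. Without Mrps6 in the Mrps sum the ratio was 2.195, 2.210 and 2.176 in the controls and 2.242, 2.176 and 2.241 with piceatannol. The groups then overlapped. With genes assigned by structure it was 2.397 ± 0.016 and 2.404 ± 0.023, and the groups overlapped as well. The whole set held 0.246% of a control library's counts and 0.199% of a piceatannol library's.

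**Figure D3:**
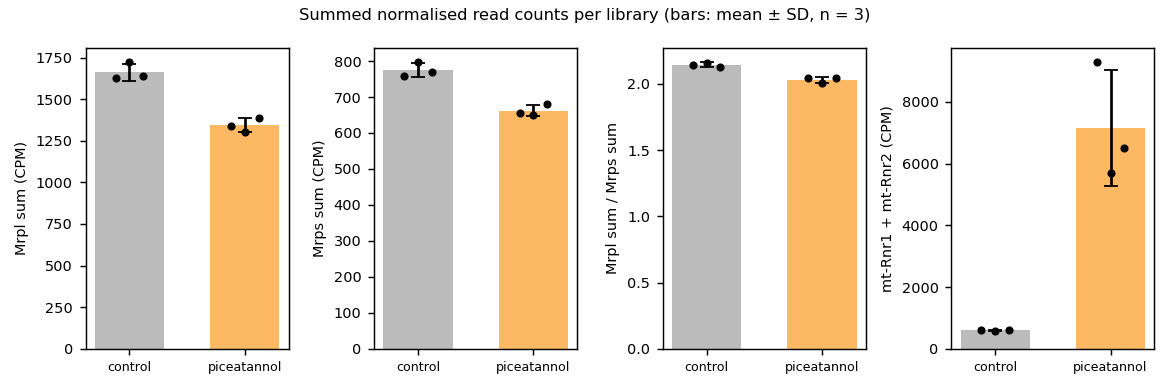
Summed read counts per library (points; bars are means ± SD, n = 3) of the Mrpl genes, of the Mrps genes, their ratio, and of the mitochondrial ribosomal RNAs mt-Rnr1 and mt-Rnr2, in control (grey) and piceatannol (orange). With piceatannol the mean protein sums (1344 and 662.1 CPM) lie below the control means and the mean RNA sum (7156 CPM) lies above. The lower ratio with piceatannol is not seen without Mrps6 or with genes assigned by structure.

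Proteins with a bacterial counterpart and those specific to mitochondria had near-equal medians. Of 46 bacterial-type genes 33 (71.7%) were called lower, 4 (8.7%) higher and 9 not called (median log2 fold change -0.46). Of 30 tested mitochondria-specific genes 18 (60%) were called lower, 7 (23.3%) higher and 5 not called (median -0.45). Over all genes tested 38.3% were called lower and 38.8% higher. Structural sites were grouped after the values had been seen and are given as a description only. Around the peptide exit, of Mrpl17, Mrpl22, Mrpl23, Mrpl24, Mrpl39, Mrpl44, Mrpl45 and Mrpl47, 2 were called lower and 4 higher. In the central protuberance, of Mrpl18, Mrpl27, Mrpl38, Mrpl40, Mrpl46, Mrpl48, Mrpl52 and Mrpl55, 5 were called lower and 1 (Mrpl38) higher. Of the stalk proteins, Mrpl11 and Mrpl12 were called lower, Mrpl1 higher, and Mrpl10 was not called.

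Levels between genes were compared on the authors' FPKM values, which are scaled by length. In the controls the highest was Mrpl52 at 58.3 ± 1.70 FPKM (SD, n = 3), followed by Mrps21 at 56.2 ± 3.86 and Mrpl43 at 48.4 ± 1.62; the first 2 did not differ beyond their spread. The lowest tested gene was Mrpl23 at 0.260 ± 0.087 FPKM. The median gene of the set stood at 11.4 FPKM in the controls and 8.97 FPKM with piceatannol, and in the controls the median was 13.8 FPKM for Mrpl genes and 8.67 FPKM for Mrps genes. The order of the genes changed little (Spearman's rho of the 2 group means 0.93 across the 78 genes, which share libraries and gene lengths), but 8 genes moved up and 4 moved down by 15 ranks or more. With piceatannol the highest was Mrpl24, at rank 7 in the controls, with 53.7 ± 2.75 FPKM against 36.6 ± 1.46. Mrps6 moved from rank 29 to rank 2, the farthest of the set, and Mrps31 from rank 64 to rank 44. The 4 that moved down were Mrpl54, from rank 10 to 29, Mrpl36, from 15 to 33, Mrpl20, from 12 to 27, and Mrps14, from 47 to 62. Mrpl43, whose fold change was 0.02, stayed at rank 3 with 48.3 ± 0.477 FPKM. Across the 77 tested genes the correlation of the log2 fold change with the control level was near 0 (Pearson's r -0.07, Spearman's rho -0.09, a description across genes).

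**Figure D4:**
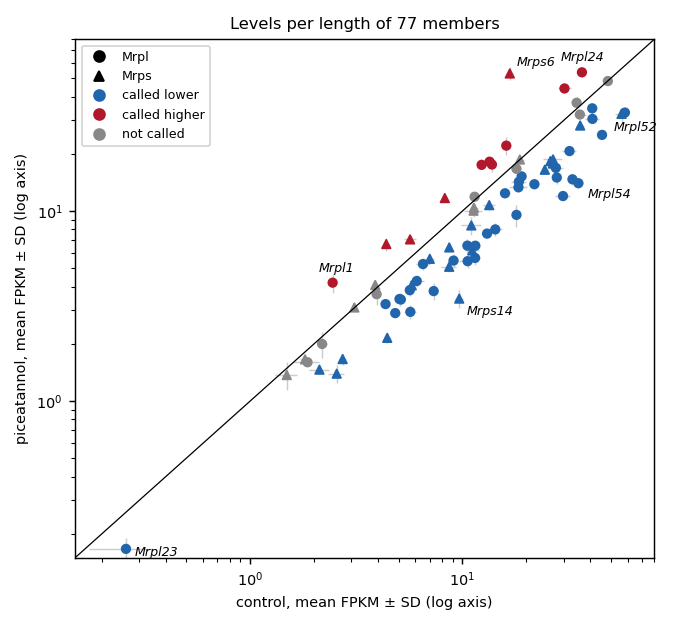
Group mean FPKM ± SD (n = 3) of 77 tested genes in the controls (x axis) and with piceatannol (y axis), both on log axes, with the line of equal level; circles are Mrpl and triangles Mrps genes, coloured by call. Most genes lie below the line, and Mrps6 and Mrpl24 lie above it among the highest levels.

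Subunits of the mitochondrial ribosome that carry other names did not share 1 direction. Chchd1, a small subunit protein, was lower, at 24.8, 24.5 and 23.5 CPM against 16.3, 16.2 and 16.5 CPM (log2 fold change -0.57 ± 0.08; edgeR adjusted p = 1.51e-06). Dap3, a GTP-binding small subunit protein, was higher at a log2 fold change of 0.20 ± 0.06 (edgeR adjusted p = 0.00652), with no piceatannol library below 64.7 CPM and no control library above 60.2 CPM. Gadd45gip1 (-0.17), Ptcd3 (-0.10) and Aurkaip1 (0.03) were not called.

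The factors that build the ribosome and those that work with it were called in both directions, as were all genes tested (38.3% lower, 38.8% higher). Of 26 assembly factors 7 (26.9%) were called lower and 11 (42.3%) higher (median log2 fold change 0.08). Their extremes both act on the small subunit: Noa1, a GTPase, fell from 22.4, 23.2 and 22.3 CPM to 9.52, 7.66 and 8.09 CPM, a log2 change of -1.42 ± 0.10 (edgeR adjusted p = 3.92e-11). Mettl17 rose from 21.1, 21.9 and 24.4 CPM to 59.9, 57.4 and 61.8 CPM, a log2 change of 1.41 ± 0.07 (edgeR adjusted p = 4.42e-13). Neither gene's groups came near each other. Of 14 translation factors and related enzymes 4 (28.6%) were called lower and 3 (21.4%) higher (median 0.02), from the peptide deformylase gene Pdf at -1.90 ± 0.60, called lower at no more than 0.454 CPM in any library, to the initiation factor Mtif3 at 0.69 ± 0.08. Of 20 genes of mitochondrial transcription, replication and RNA processing 6 (30%) were called lower and 10 (50%) higher (median 0.14), from the RNA-degrading enzyme Pnpt1 at -1.20 ± 0.10 to Polg2, the accessory subunit of the mitochondrial DNA polymerase, at 0.85 ± 0.12. Of 10 regulators of nuclear genes for mitochondrial proteins 2 (20%) were called lower and 4 (40%) higher. Ppargc1b, a coactivator of mitochondrial biogenesis, rose most, from 3.82, 3.44 and 4.82 CPM to 31.6, 31.8 and 31.7 CPM, a log2 change of 2.96 ± 0.11 (edgeR adjusted p = 1.93e-15). Gabpb2, a GABP subunit, was lowest at -0.53 ± 0.06, and its relative Gabpb1 was called higher at 1.00 ± 0.07. Nrf1 (0.37) and Yy1 (0.27), whose sites were searched in the promoters, were called higher as well. Gabpb1, Nrf1 and Yy1 were chosen after their values were seen. All 4 of the list called higher are thus named, but only Gabpb2 of the 2 called lower. Gabpa, another GABP gene of the list, is not given, so the genes named do not stand for the list or for the factors of the searched sites. The median of the list was -0.04.

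Other large complexes gave the scale for the decrease. Over all genes tested 38.3% were called lower and 38.8% higher. Of 82 tested cytosolic ribosomal protein genes 62 (75.6%) were called lower and 3 (3.66%) higher. Their median log2 fold change was -0.43, close to that of the mitochondrial set, and values ran from Rpl3l (-2.26 ± 0.24) to Rps12 (0.82 ± 0.10). Of 36 nuclear genes for complex I, the first enzyme of the respiratory chain, 35 (97.2%) were called lower and none higher (median -0.64). Values ran from Ndufb2 (-1.30 ± 0.11) to Ndufa7 (-0.13 ± 0.07), the one not called. The summed read count was 13170 ± 540.3 CPM in the controls and 9440 ± 289.1 CPM with piceatannol for the cytosolic ribosomal proteins, and 2258 ± 93.2 and 1456 ± 43.1 CPM for complex I (mean ± SD, n = 3). For the mitochondrial ribosomal proteins it was 2438 ± 69.4 and 2007 ± 56.5 CPM, a ratio of piceatannol to control of 0.823 beside 0.717 and 0.645. Whether these ratios differ beyond what the lists' make-up gives was not tested. Stretches shared with other genes were searched only for the mitochondrial ribosomal protein genes, so this limit is unknown for the other lists.

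Of the 15 ribosomal RNAs and mRNAs of the mitochondrial genome in the count table, 9 were tested. Of these 9, 8 went the other way and were called higher, and none was called lower, beside 38.8% and 38.3% of all genes tested. The 12S ribosomal RNA mt-Rnr1 was at 232.6, 219.4 and 235.1 CPM in the controls and 3407, 2155 and 2349 CPM with piceatannol (log2 fold change 3.53 ± 0.19; edgeR adjusted p = 2.70e-06). The 16S ribosomal RNA mt-Rnr2 was at 365.2, 360.9 and 364.8 CPM and at 5870, 3534 and 4154 CPM (log2 fold change 3.64 ± 0.20; edgeR adjusted p = 3.03e-06). Piceatannol replicate 1 was the highest for both, and the other piceatannol libraries were also far above every control library. Their sum was 592.7 ± 10.8 CPM in the controls and 7156 ± 1881 CPM with piceatannol (mean ± SD, n = 3), a ratio of 12.1. Among the mRNAs, mt-Co1 (1.26), mt-Nd4 (1.21), mt-Nd5 (0.87), mt-Nd2 (0.68), mt-Cytb (0.59) and mt-Nd1 (0.42) were called higher and mt-Nd6 (0.54 ± 0.38) was not called. The count table lists mt-Atp6, mt-Atp8, mt-Co2, mt-Co3, mt-Nd3 and mt-Nd4l at 0 in all libraries, so these 6 genes gave no value. How mitochondrial reads and ribosomal RNA were handled is not known here, and its part in the rise was not tested. With the mitochondrially encoded genes left out before scaling, 50 of the ribosomal protein genes were called lower and 11 higher, and the lost call was that of Mrpl23.

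**Figure D5:**
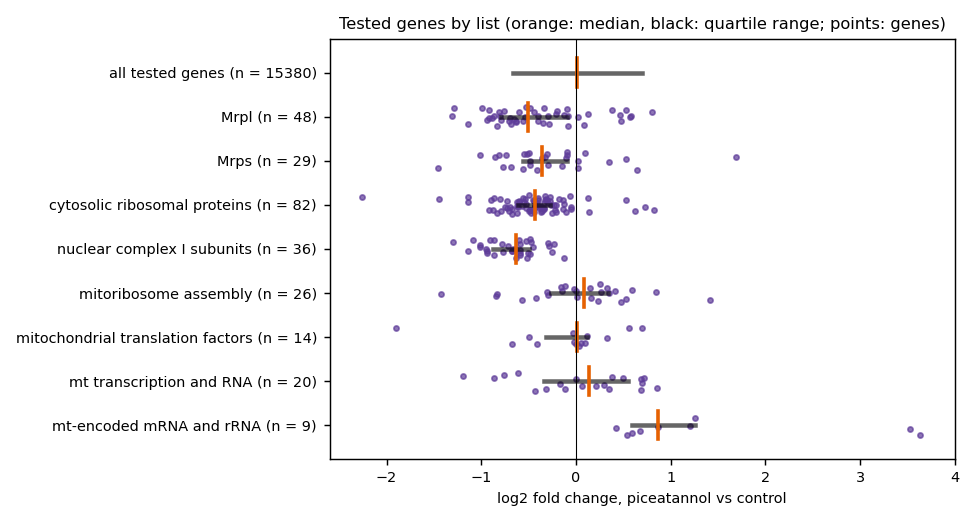
Log2 fold change of every tested gene (points) in 8 lists, with the median (orange) and the quartile range (dark bar); the top row gives only these for the 15380 genes tested. The medians of the ribosomal protein and complex I lists lie left of 0, those of the assembly, translation factor and RNA lists near 0, and that of the mitochondrially encoded RNAs at 0.87.

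Exons of 28 of the 78 genes overlap an exon on the opposite strand and those of 8 overlap one on the same strand. Among the 53 genes with under 10% of their exonic bases or 50-base stretches shared with another gene, 38 were called lower and 7 higher. The shares over all genes tested were 38.3% and 38.8%. Several of the genes start next to another gene read in the opposite direction, and these neighbours moved both ways. A divergent protein-coding neighbour started within 1000 bases of 18 of the 78 genes. In 13 of these the ribosomal protein gene was called lower, and the neighbour was lower in 5, higher in 6 and not called in 2. This split is near that over all genes tested, of which 38.3% were called lower and 38.8% higher. Mrpl54 starts 26 bases from Apba3, which was called higher (log2 fold change 0.81 ± 0.07). Mrpl51 starts 100 bases from the condensin gene Ncapd2, which was called lower (-2.45 ± 0.10), and Mrpl57 starts 49 bases from Ska3, a kinetochore gene, lower at -1.31 ± 0.13.

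The libraries differed between the groups in much else. They held 33276569 to 58697084 counts, and Pearson's r of log2 CPM between libraries was 0.9957 to 0.9981 within the groups and 0.9228 to 0.9313 across them. All 8 macrophage markers were detected; their summed level was 18600 to 22570 CPM in the controls and 13200 to 14670 CPM with piceatannol, with 6 called lower (Fcgr1 lowest) and 2 higher (Cd68 and Cd14). All 12 proliferation genes were called lower, where 38.3% of all genes tested were called lower and 38.8% higher. These shares are the background for every marker list here. The sum of the 12 proliferation genes was 995.7 to 1095 CPM in the controls and 185.8 to 234.6 CPM with piceatannol. Neutrophil markers (7 of 7 tested lower) summed to 254.5 to 599.6 CPM and 34.0 to 41.1 CPM, dendritic cell markers (5 of 7 lower, 1 higher) to 1539 to 1666 CPM and 815.2 to 1013 CPM, and fibroblast markers (4 of 5 lower) to 2198 to 2451 CPM and 512.8 to 573.4 CPM. T and NK cell and B cell markers each summed to at most 3.83 CPM in every library, Ncr1 was at 0 throughout, and Siglech was at 0 with piceatannol. Mast cell and basophil markers summed to 33.1 to 38.1 CPM and 74.1 to 90.8 CPM; Kit was called higher and the other 4 lower. The only erythroid marker that passed the filter was called higher, at a mean of 0.247 CPM in the controls and 0.859 CPM with piceatannol (log2 fold change 1.76). In bulk RNA, fewer cells of a type and less RNA per cell cannot be told apart, and the part of these shifts in the ribosomal protein levels was not tested.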

How the data were processed

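For 6 libraries, the authors deposited a table of raw counts (whole reads for each symbol) and 1 of FPKM values (fragments scaled by length and library size). The submitters' processing notes name bcl2fastq, STAR, featureCounts, DESeq2, mm10 and GRCm38, without versions; the annotation and strand setting were not given in the sources used. Positions and exon overlaps are those of GENCODE M21 on GRCm38.

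Counts were filtered with filterByExpr (minimum count 10), scaled by TMM (factors 0.985 to 1.016) and compared with edgeR 4.0.16's quasi-likelihood test (R 4.3.3, robust, two-sided, no covariate). P-values were adjusted by Benjamini-Hochberg over 15380 genes, with a threshold of 0.05. A standard error is the log2 fold change divided by the square root of F. Totals were 33276569 to 58697084 counts; intervals beyond the replicate spread were not computed, and the biological coefficient of variation was 7.34%. On simulated counts for the 15380 genes the test recovered 68.7%, 85.1% and 93.9% of genes changed 1.5-, 2- and 4-fold, with 12 false calls. The simulation changed only 67, 67 and 66 genes, gave every gene the common dispersion, and 14567 genes passed its filter. In the data 38.3% of genes were called lower and 38.8% higher, so these figures are no error rate for the data.

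The members and lists were chosen with earlier results of these data known. Genes named are the 8 lowest and 4 highest Mrpl and the 6 lowest and 4 highest Mrps by log2 fold change, Mrpl12, Mrps18a, Mrps18b, Mrps18c, Mrps30, Mrps36, untested members, and the extremes of other lists; other genes were chosen after their values were seen. Same-numbered libraries of the 2 groups deviated together weakly (r = 0.115, 0.121 and 0.134 across genes). This correlation, not a label, is the only ground for pairing them, and it does not establish pairing. The main fit has no block, and the fit with the replicate number as a block is given as an alternative. No 2 libraries agreed within sampling noise (chi-square per degree of freedom 9.88 to 18.13). Alternatives were RLE and upper-quartile factors, library totals, other filters, DESeq2 1.42.0, limma 3.58.1 (voom, and log2(FPKM + 1) or log2(FPKM + 0.1)), a replicate block, a threshold of 0.01, leaving out each library and, chosen after seeing the data, leaving out overlapping members, Mrps6 or mitochondrially encoded genes.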

Additional observations from a re-analysis of the deposited data

How the results depend on the processing

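Over 18 fits, 48 of the ribosomal protein genes were called lower and 11 higher in every fit that tested them, and calls changed for 6: Mrpl23, Mrpl34, Mrps18c, Mrpl10, Mrpl48 and Mrpl2. The counts ran from 48 to 52 lower and from 11 to 12 higher, where the main fit called 38.3% of all genes tested lower and 38.8% higher. Over the fits with a filter the share of all genes called lower ran from 35.8% (without control replicate 3) to 41.7% (CPM of at least 5 in 3 libraries). With the replicate number as a block, 50 were called lower and 12 higher; the block removed the call of Mrpl23, added that of Mrpl10 and changed no other call in the set. The median over all members, -0.438 as reported, was -0.386 with upper-quartile factors, -0.365 with a CPM of at least 5 in 3 libraries and -0.379 on log2(FPKM + 1), and ran from -0.499 (without control replicate 1) to -0.418 over the fits that left out 1 library. The large subunit median, -0.505, was -0.424 with the CPM filter, which tested 74 members, and -0.428 on log2(FPKM + 1). The difference between large and small subunit medians was -0.143 by symbol, -0.016 by structural class and -0.089 in both FPKM fits, and ran from -0.149 to -0.070 (without control replicate 3) over the fits that left out 1 library. The ratio of summed Mrpl to Mrps counts, piceatannol minus control, was -0.114, but 0.026 without Mrps6, 0.007 by structural class and -0.193 on FPKM, all chosen after seeing the data; it ran from -0.123 to -0.101 when 1 library was left out. Among the 53 members with under 10% overlap or shared stretches, an alternative chosen after seeing the data, 38 were called lower, 7 higher (2 of them small subunit genes) and the median was -0.491; fewer genes enter these counts. Mrps36 ran from -0.207 to 0.041 over the fits that left out 1 library, turning without piceatannol replicate 1 (edgeR adjusted p = 0.875), and Mrps18c was at -0.244 without control replicate 1 (edgeR adjusted p = 0.062); the cause was not tested. With no filter 27230 genes were tested and 23% were called lower, so the background depends on the filter. Depth limits Mrpl53, Mrpl23 and Mrps36, each under 2.2 CPM in every library.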

Other observations

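The median coefficient of variation of a member's normalised read count between libraries was 4.51% in the controls and 5.93% with piceatannol.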
